A study of Mus musculus with 30 samples.

Results

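Vav2, Anxa4, Sec61g, Pdia4, Ttc8 and Daw1 were followed in the blood leukocytes of mice given cyclophosphamide, an alkylating drug that kills dividing cells of the bone marrow. They were chosen by their measured fall at day 2 after the drug and their rise by day 5, in a set of features that moved like Alas2, so the changes at day 2 against untreated and at day 5 against day 2 describe how they were picked and are given without a test. The other comparisons share samples with these, and calls in them are given as a description that supports nothing. All 6 genes were on the array, on 7 probes, and all 6 were among the 6515 tested features of 13027 in the series. The arrays compared 15 samples of peripheral blood leukocytes from DBA/2 mice, an inbred strain, each in 2 technical replicates that were averaged. The groups were 4 untreated samples and, after cyclophosphamide at 83 mg per kg, 4 taken at day 1, 4 more at day 2 and the last 3 at day 5. Each value is a log2 ratio of the blood sample, in Cy5, over a bone marrow reference of the same strain, in Cy3. The labels call the samples independently harvested, without saying whether a sample is 1 mouse or a pool, so p-values measure the spread between samples as harvested. The reference is labelled as a pool of untreated marrow in one place and as treated with the drug in another, and it drops out of differences between groups only if it was the same throughout. The deposited columns are centred near 0, with medians from -0.0028 to 0.025, so a ratio shows unequal change and not an absolute amount. In a bulk sample, fewer cells of a type and less RNA per cell cannot be told apart.

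The 6 genes come from 3 areas of cell biology. Vav2 is a guanine nucleotide exchange factor that acts downstream of tyrosine kinase receptors, and Anxa4 is an annexin, a protein that binds phospholipid membranes when calcium is present. Sec61g is the gamma subunit of the Sec61 translocon, the channel through which new proteins enter the endoplasmic reticulum (ER), and Pdia4 is a protein disulfide isomerase that helps those proteins fold there. Ttc8, also known as Bbs8, is a subunit of the BBSome, a coat complex that carries membrane proteins to and from cilia, and Daw1 helps to assemble the dynein arms of motile cilia, structures that mature leukocytes are generally held to lack. In blood cells the Vav family is best known from antigen receptor signalling, and the ER genes from cells that secrete much protein, such as plasma cells.

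The array files name no genome build. In RefSeq's annotation of GRCm38.p6 the members are protein-coding genes on 5 chromosomes, with Pdia4 and Anxa4 on the same one but not as neighbours. Because the members moved together, their promoters are shown, as 200 bases from 150 before to 50 after the start site (RefSeq, GRCm38.p6, 5′ to 3′ on the gene's strand). Ttc8, Vav2, Sec61g and Pdia4 have 1 window in the table, and for Daw1 and Anxa4, which have 2, the first is printed. Capitals mark matches, on either strand, to the motifs searched. The CCAAT box was searched as its letters, the second part of the ER stress element as CCACG, the cyclic AMP and ATF type site as TGACGTG and the GATA type site as AGATAA. The complete ER stress element, in which CCAAT stands 9 bases before CCACG and so overlaps both, and the X box core (CCATGG with GT and AC each 2 bases away from it), a palindrome found before many cilia genes, were searched as well.
Vav2 (chr2:27427559-27427758, minus strand): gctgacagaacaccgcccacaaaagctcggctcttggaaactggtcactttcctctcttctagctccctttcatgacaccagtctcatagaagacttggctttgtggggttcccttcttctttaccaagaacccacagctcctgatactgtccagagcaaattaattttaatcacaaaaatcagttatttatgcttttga
Anxa4 (chr6:86793535-86793734, minus strand): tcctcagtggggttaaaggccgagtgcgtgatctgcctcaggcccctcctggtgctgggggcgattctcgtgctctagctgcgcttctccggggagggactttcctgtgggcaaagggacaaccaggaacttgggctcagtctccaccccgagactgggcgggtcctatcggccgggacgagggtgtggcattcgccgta
Sec61g (chr11:16508435-16508634, minus strand): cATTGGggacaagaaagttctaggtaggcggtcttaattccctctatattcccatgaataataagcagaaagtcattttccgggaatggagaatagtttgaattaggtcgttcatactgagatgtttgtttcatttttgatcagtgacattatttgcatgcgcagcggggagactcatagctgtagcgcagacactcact
Pdia4 (chr6:47813463-47813662, minus strand): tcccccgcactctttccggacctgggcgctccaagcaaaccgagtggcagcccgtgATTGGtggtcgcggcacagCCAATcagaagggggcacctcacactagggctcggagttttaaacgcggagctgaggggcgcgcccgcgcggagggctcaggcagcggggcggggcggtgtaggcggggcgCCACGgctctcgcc
Ttc8 (chr12:98920424-98920623, plus strand): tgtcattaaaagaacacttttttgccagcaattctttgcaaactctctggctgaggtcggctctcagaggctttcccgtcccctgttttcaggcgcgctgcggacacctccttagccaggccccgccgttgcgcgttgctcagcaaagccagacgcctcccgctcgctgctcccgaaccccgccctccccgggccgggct
Daw1 (chr1:83159605-83159804, plus strand): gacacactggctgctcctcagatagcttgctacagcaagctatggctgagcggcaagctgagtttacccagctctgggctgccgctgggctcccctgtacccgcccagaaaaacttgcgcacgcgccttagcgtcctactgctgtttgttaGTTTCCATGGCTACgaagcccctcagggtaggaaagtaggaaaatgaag

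The windows had little in common. CCAAT stood in the windows of 2 members, at 94 and 75 bases before the start site in Pdia4 and at 149 bases before it in Sec61g, and it stands in 28.6% of all 32851 windows. CCACG matched in Pdia4 alone, after the start site, against 25.3% of all windows. The X box core matched in Daw1 alone, just after the start site and not before it, against 0.426% of all windows, and this motif was added after the windows had been seen. The ATF type site (1.61% of all windows), the GATA type site (6.92%) and the complete ER stress element (0.0883%) matched in 0 of the 6 windows. The share of G and C was 70.5% in Pdia4, 64.0% in Anxa4, 62.0% in Ttc8, 56.0% in Daw1, 43.5% in Vav2 and 41.5% in Sec61g, against a median of 54.0% over all windows, so the members lay on both sides of it. A match describes these letters in this window and does not show a binding site.

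Daw1 had a second probe on the array without a value in any of the 30 columns, so its values come from 1 probe like those of the other members. Pdia4 had values in 28 of 30 columns, and untreated replicate 4 and day 5 replicate 3 rest on a single technical replicate. The other 4 members and the probe used for Daw1 had all 30 values. The 2 technical replicates of a sample differed by a median of 0.05 (Pdia4) to 0.09 log2 units (Anxa4 and Ttc8), less than the median SD between samples of a group, which was 0.25 for Sec61g and 0.35 to 0.49 for the others. The largest difference was above that SD for Anxa4 (0.51 against 0.49) and Ttc8 (0.39 against 0.35). For the other members it ran from 0.21 to 0.41, below the SD of each. The number of arrays limits the precision of all values below.

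Among the signalling and membrane genes, Vav2 had log2 ratios of -0.05, 0.09, 0.16 and 0.53 in the untreated samples, -1.64, -1.61, -0.39 and -0.72 at day 1, -1.90, -1.35, -2.79 and -3.32 at day 2, and 1.17, 0.60 and 0.51 at day 5. Every day 1 and day 2 sample was below every untreated sample, day 1 and day 2 overlapped, and the spread at day 2 was wide (-2.34 ± 0.88, SD, n = 4). Anxa4 had log2 ratios of 0.52, 0.49, 0.77 and 0.70 in the untreated samples, -0.88, -1.17, 0.25 and -0.22 at day 1, -1.31, -1.70, -2.70 and -1.76 at day 2, and 1.54, 1.25 and 0.78 at day 5. Its 4 groups did not overlap at all, although only 0.01 log2 units lay between the lowest day 5 and the highest untreated sample. The day 2 log2 change against untreated was -2.52 (SE 0.37) for Vav2 and -2.49 (SE 0.30) for Anxa4, the 8th and 9th lowest changes of the 6515 tested features. If the values are log2, these are levels 5.74-fold and 5.60-fold lower at day 2.

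Of the secretory genes, Sec61g had log2 ratios of 0.04, 0.21, -0.04 and -0.16 in the untreated samples, -1.10, -1.55, -0.81 and -1.18 at day 1, -1.21, -1.62, -1.51 and -1.65 at day 2, and 0.72, 0.41 and -0.37 at day 5. Its low values at days 1 and 2 overlapped and were closely grouped (-1.16 ± 0.31 at day 1 and -1.50 ± 0.20 at day 2, SD, n = 4 each). Pdia4 had log2 ratios of -0.11, 0.38, 0.31 and 0.46 in the untreated samples, -0.99, -1.11, -0.21 and -0.24 at day 1, -0.29, -1.87, -1.45 and -2.11 at day 2, and 0.95, 0.49 and 0.48 at day 5. Pdia4 came nearest to overlap, since day 1 replicate 3 lay only 0.10 log2 units below the lowest untreated sample and day 2 replicate 1 only 0.19. The day 2 log2 change was -1.51 (SE 0.20) for Sec61g and -1.69 (SE 0.32) for Pdia4, or 2.85-fold and 3.23-fold lower levels at day 2. Without day 2 replicate 1 the change of Pdia4 was -2.07.

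Of the ciliary genes, Ttc8 had log2 ratios of 0.10, 0.22, 0.14 and 0.37 in the untreated samples, -1.27, -1.23, -0.77 and -0.78 at day 1, -0.81, -0.85, -1.62 and -1.87 at day 2, and 0.43, 0.92 and 0.07 at day 5. At day 2 its samples split, with replicates 1 and 2 inside the range of day 1 and replicates 3 and 4 below it. Daw1 had log2 ratios of 0.46, 0.35, 0.87 and 0.90 in the untreated samples, -0.91, -0.92, 0.13 and -0.24 at day 1, -1.12, -1.95, -1.71 and -1.60 at day 2, and 1.65, 1.34 and 0.84 at day 5. Day 2 was below day 1 and day 1 below untreated in every sample of Daw1, while day 5 and untreated overlapped. The day 2 log2 change was -1.49 (SE 0.23) for Ttc8 and -2.24 (SE 0.25) for Daw1, or 2.82-fold and 4.73-fold lower levels at day 2.

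**Figure D1:**
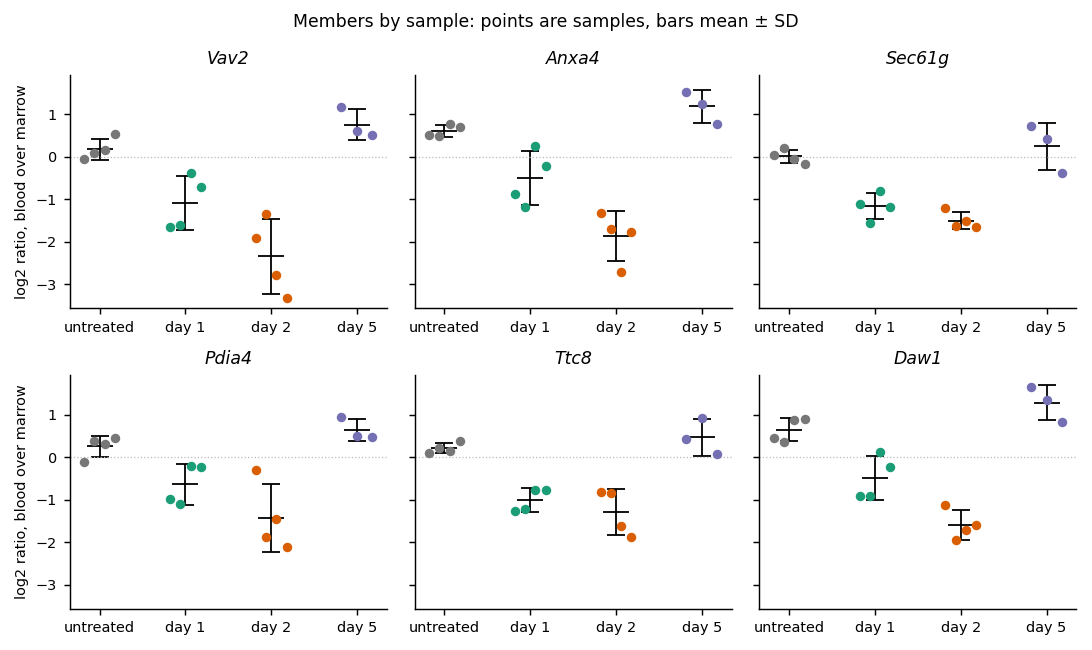
Log2 ratio of blood leukocytes over bone marrow (vertical axis) for each of the 6 genes in untreated blood and at days 1, 2 and 5 after cyclophosphamide; each point is a sample, the long bar is the group mean and the short bars are ± 1 SD (n = 4, day 5 n = 3). All 6 genes are lowest on average at day 2 and highest at day 5, and Sec61g and Ttc8 are nearly as low at day 1 as at day 2.

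The group means of every member stood in 1 order, with day 5 highest, then untreated, day 1 and day 2. The median change of the members at day 2 was -1.97, against 0.06 over all tested features. This contrast picked the members, so their distance from the other features was set by the choice.

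At day 1 the log2 change against untreated was -1.27 (SE 0.37) for Vav2, -1.22 (SE 0.23) for Ttc8, -1.17 (SE 0.20) for Sec61g, -1.13 (SE 0.25) for Daw1, -1.12 (SE 0.30) for Anxa4 and -0.90 (SE 0.32) for Pdia4. The members were thus closer to each other at day 1, from -1.27 to -0.90, than at day 2, from -2.52 to -1.49. At day 1, 4 of the 6 were called lower (limma over all tested features, adjusted p under 0.05), all but Vav2 and Pdia4, where 2.32% of all tested features were called lower and 2.29% higher. All 6 had day 1 samples entirely below the untreated ones, as had 7.71% of all tested features. The count of 4 depended on single samples, falling to 1 without untreated replicate 4, day 1 replicate 1 or day 1 replicate 2, and to 2 without untreated replicate 3 or day 1 replicate 4. Part of the members had been named with this contrast in view and it shares the untreated samples with day 2, so it too is a description.

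The members differed in how much of the day 2 change was already there at day 1. The day 1 change was 81.5% of the day 2 change for Ttc8 and 77.6% for Sec61g, against 53.2% for Pdia4, 50.6% for Vav2, 50.4% for Daw1 and 45.1% for Anxa4. Between day 2 and day 1 the log2 change was -1.37 (SE 0.30) for Anxa4, -1.25 (SE 0.37) for Vav2, -1.11 (SE 0.25) for Daw1, -0.79 (SE 0.32) for Pdia4, -0.34 (SE 0.20) for Sec61g and -0.28 (SE 0.23) for Ttc8. Anxa4 and Daw1 were called lower at day 2 than at day 1, where 0.614% of all tested features were, and they are also the 2 members whose day 2 samples lay entirely below those of day 1, as did those of 4.82% of all tested features. Both calls were lost when day 2 and day 1 were fitted alone, and the count of 2 became 0 without any 1 of the 4 untreated samples, day 1 replicates 3 or 4, or day 2 replicates 2, 3 or 4. It was 1 without day 1 replicate 1 and 3 without day 2 replicate 1. Whether the members' early and late shares differ from each other was not tested.

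**Figure D2:**
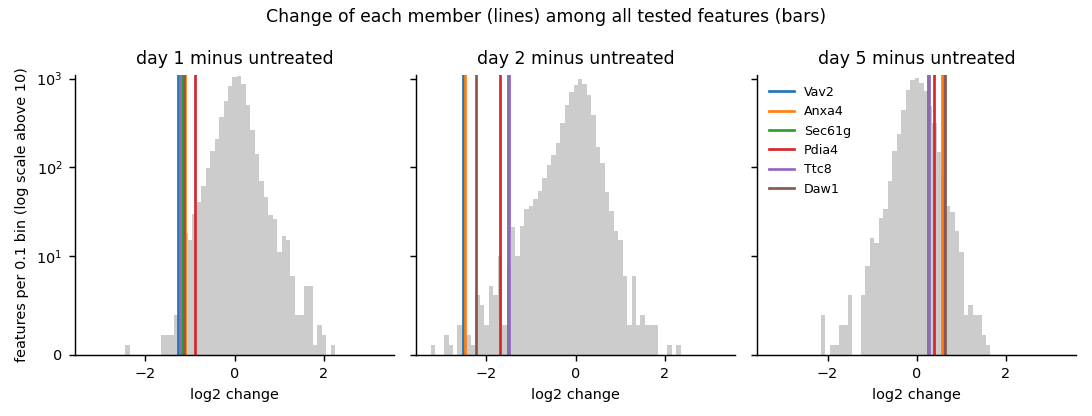
Number of tested features in bins of 0.1 log2 units (vertical axis, linear up to 10 and logarithmic above) by their log2 change against untreated at days 1, 2 and 5 (horizontal axes), with the 6 genes as coloured lines; at day 2 the lines of Sec61g (-1.51) and Ttc8 (-1.49) nearly coincide. The lines lie in the lower tail at days 1 and 2. At day 5 they lie from the upper part of the bulk (Sec61g, 1230th highest of 6515) to the upper tail (Daw1, 131st highest).

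At day 5 the group means of the members stood 0.24 to 0.63 log2 units above those of untreated blood, and limma called none of these differences. The day 5 log2 change against untreated was 0.63 for Daw1 (95% confidence interval 0.06 to 1.21), 0.58 for Vav2 (-0.27 to 1.42), 0.57 for Anxa4 (-0.12 to 1.27), 0.38 for Pdia4 (-0.36 to 1.11), 0.27 for Ttc8 (-0.27 to 0.80) and 0.24 for Sec61g (-0.23 to 0.71). Of the 6, 1 member, Daw1, had an unadjusted limma p under 0.05, as had 1134 of all tested features. Over all tested features 1.09% were called in either direction at day 5, and 0.261% higher. The members were picked on their untreated, day 2 and day 5 samples, so both sides of this comparison served the choice and it is no independent test. The day 5 samples lay entirely above the untreated ones for Anxa4 and Pdia4, by 0.01 and 0.02 log2 units, as did those of 6.63% of all tested features, and overlapped them for the other 4. The upper bounds of the intervals were above 1 log2 unit for 4 members, so a rise of that size over untreated blood was not excluded for them. The intervals of all members but Daw1 also held 0. That of Daw1 did not, but the intervals are not adjusted for the number of features.

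Set against the 2 earlier days, all 6 were higher at day 5. The log2 change between day 5 and day 2 was 3.10 for Vav2, 3.06 for Anxa4, 2.87 for Daw1, 2.07 for Pdia4, 1.76 for Ttc8 and 1.75 for Sec61g. Between day 5 and day 1 it ran from 1.28 for Pdia4 to 1.85 for Vav2. For all 6 members the day 5 samples lay entirely above those of day 1 and of day 2, as they did for 14.5% and 14.4% of all tested features. Both comparisons hold groups that picked the members, and nothing is read from these counts.

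The other genes of the members' pathways were not chosen for a fall. Of 136 other genes on 5 pathway lists that are on the array, chosen around all members but Vav2, 68 had enough values to be tested, and their day 2 log2 changes against untreated ran from -0.78 to 0.66 with a median of -0.01, against 0.06 over all tested features. At day 2, 2 of the 68 (2.94%) were called lower and 4 (5.88%) higher, where 7.84% of all tested features were called lower and 4.83% higher. At day 1, 0 were called lower and 1 higher, and at day 5 none was called either way (limma, adjusted p under 0.05), counts that ran up to 3 lower and 6 higher at day 1 and up to 2 lower and 1 higher at day 5 under other settings. Falls of at least 1 log2 unit at day 2 followed by rises of at least 1.5 between day 2 and day 5 were seen in 105 tested features (1.61% of all), all 6 members among them, and in 0 of the 68 pathway genes, from which nothing is read at so small a share. The lists were chosen with earlier results of these data known.

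In the ER translocon and signal peptide processing list, 13 of 24 genes on the array were tested besides Sec61g and 0 passed at day 1, day 2 or day 5. The largest day 2 changes were -0.27 for Srp54a, a part of the signal recognition particle (limma adjusted p = 0.496), 0.24 for Spcs1, a signal peptidase subunit, 0.18 for Emc3, a membrane protein insertase subunit, and -0.17 for Ssr2, a translocon-associated protein. Sec61a1, the channel-forming subunit that pairs with Sec61g and was singled out after its values were seen, had a day 2 change of -0.01 (SE 0.21), against -1.51 for Sec61g. The beta subunit Sec61b and the alternative alpha subunit Sec61a2 had too few values to be tested.

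In the list of ER folding and the unfolded protein response, 23 of 40 genes were tested besides Pdia4, and none was called lower at any day, while 14, 15 and 16 of the 23 had changes below 0 at days 1, 2 and 5. Stt3b, a catalytic subunit of the enzyme that attaches sugars to new ER proteins, rose at day 2, by 0.66 log2 units (SE 0.17, limma adjusted p = 0.0211), and Derl1, which helps to move misfolded proteins out of the ER, rose at day 1, by 0.96 (SE 0.24, limma adjusted p = 0.036). The call of Stt3b was lost without untreated replicate 1, untreated replicate 2 or day 2 replicate 2, and that of Derl1 in 11 of 25 alternatives. The stress-induced factor Ddit3 had a day 2 change of 0.45 (limma adjusted p = 0.0619) and the chaperone cofactor Sdf2l1 -0.42 (0.225). Pdia3 and P4hb, disulfide isomerases like Pdia4 that were singled out after their values were seen, both had day 2 changes of -0.07 (SE 0.17 each). The median day 2 change of the list was -0.07, against 0.06 over all tested features. Hspa5, Canx and Xbp1 had too few values to be tested.

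In the list of annexins and their S100 partners, 6 of 15 genes were tested besides Anxa4. Anxa5, which binds exposed phosphatidylserine, fell at day 2 (log2 change -0.78, SE 0.23, limma adjusted p = 0.0386). Its log2 ratios were 0.02, -0.31, 0.11 and 0.26 at day 2, against 1.02, 0.29, 0.79 and 1.08 in untreated samples, and the call was lost in 10 of 25 alternatives. Anxa1, S100a6 and Anxa3 had day 2 changes of 0.49, 0.49 and 0.43 and did not pass. At day 1, when Anxa4 was already low, Anxa5 did not pass (limma adjusted p = 0.995).

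In the list of the BBSome and intraflagellar transport, 16 of 32 genes were tested besides Ttc8, and 4 passed at day 2. Ift172, a part of the transport trains that build cilia, fell (log2 change -0.75, SE 0.11, limma adjusted p = 0.000445) and kept its call in all 25 alternatives. Its log2 ratios were -0.44, -0.55, -0.53 and -0.36 at day 2, against 0.08, 0.22, 0.35 and 0.47 in untreated samples, and 0.51, 0.54 and 0.27 at day 5, so it was low at day 2 like Ttc8 but by a smaller amount. The BBSome subunit Bbs2 rose by 0.50 (limma adjusted p = 0.0359), and the transport proteins Ift27 and Ift43 rose by 0.45 (0.0283) and 0.33 (0.0359). These 3 calls were lost in 12, 6 and 11 of 25 alternatives. Mkks, a chaperone of BBSome assembly, had a day 2 change of -0.44 and did not pass.

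In the ciliary dynein list, 10 of 25 genes were tested besides Daw1 and 0 passed at any day. Pih1d1, Dnal4, Dnaaf1 and Dnaaf4 had the largest day 2 changes, 0.40, -0.34, 0.30 and 0.24. Pih1d1 is a part of a chaperone cofactor complex, Dnal4 a dynein light chain, and Dnaaf1 and Dnaaf4 are, like Daw1, dynein assembly factors. The other genes of this list on the array, among them Foxj1 and Dnah11, had too few values to be tested.

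**Figure D3:**
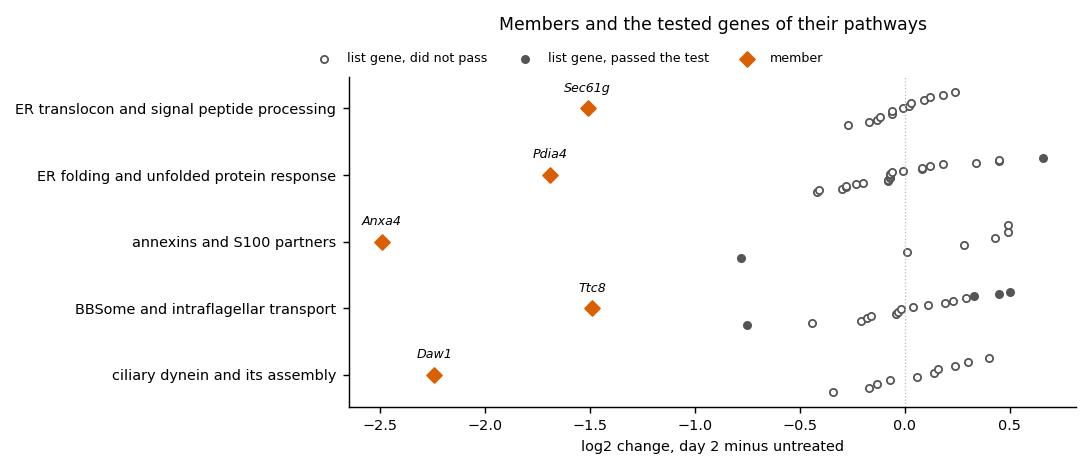
Log2 change at day 2 against untreated (horizontal axis) for 5 of the 6 genes, Vav2 left out (orange diamonds), and the tested genes of each one's pathway list (circles, filled where limma's adjusted p was under 0.05), with 1 row for each list. The diamonds, chosen for their fall, lie between -2.49 and -1.49 and all circles between -0.78 and 0.66.

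Several markers of the cell types that blood leukocyte RNA can hold moved at the same times. The erythroid and reticulocyte list had 14 tested genes of 23 on the array, and 2 were called lower at day 2, where 7.84% of all tested features were. Alas2 codes for the first enzyme of haem synthesis in red cell precursors. The members were picked to resemble its pattern, so its day 2 call is a description. Alas2 fell at day 2 (log2 change -2.83, SE 0.40). Its log2 ratios were -0.47, -0.30, 0.39 and 0.77 in untreated samples, -1.73, -1.60, -0.73 and -1.15 at day 1, -1.33, -3.24, -3.05 and -3.30 at day 2, and 0.64, 0.49 and 1.39 at day 5. Bnip3l, which helps maturing red cells to clear their mitochondria, fell at day 2 with a change of -0.60 (SE 0.13, limma adjusted p = 0.00509). The call of Bnip3l was kept in all 25 alternatives. The alpha globin gene Hba-a1, singled out after its values were seen, had a day 2 change of -0.32 (SE 0.13, limma adjusted p = 0.121), and Klf1 and Car2 had changes of 1.31 (SE 0.90) and -0.82 (SE 0.62). The mean of the erythroid list in a sample ran from -1.20 to -0.33 in untreated blood, -0.85 to -0.71 at day 1, -1.02 to -0.79 at day 2 and -0.46 to -0.33 at day 5. Its medians of -0.58, -0.73, -0.91 and -0.36 stood in the same order as the members' group means. The lowest untreated mean was that of replicate 4 (-1.20), where Klf1 was at -4.35 and Car2 at -1.51. In that sample Alas2 (0.77) and the mean of the members (0.47) were the highest of the untreated group, opposite to the list. Only without that sample, singled out by its low mean, did untreated blood (-0.65 to -0.33) lie above every day 1 and day 2 sample. Alas2 is itself in the list, and for the other 13 genes the medians were -0.62, -0.71, -0.78 and -0.46, in the same order, with days 1 and 2 overlapping untreated blood (-0.74 to -0.34 without replicate 4). In day 2 replicate 3, which had the lowest mean of these 13 genes at day 2 (-0.87), Car2 was at -3.6. Car2 had no value in day 2 replicate 1, and the order of the medians without Car2 was not computed. The part of red cell precursors in the members' values was not tested.

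Beside the counts that follow, 2.32% of all tested features were called lower and 2.29% higher at day 1. The shares were 7.84% and 4.83% at day 2. At day 5, 1.09% were called in either direction and 0.261% higher. Among the other lists, 5 of 8 tested monocyte genes were called lower at day 2 and 3 at day 1, led by Ms4a6c (day 2 change -1.73, SE 0.18, limma adjusted p = 4.07e-05). The mean of the monocyte list in a sample ran from 0.31 to 0.81 in untreated blood and 0.09 to 0.22 at day 1. It ran from -0.25 to -0.12 at day 2 and 0.30 to 0.59 at day 5. As in the members, days 1 and 2 were below untreated blood and day 2 was lowest. Unlike in the members, untreated blood (median 0.68) stood above day 5 (median 0.40). Of 9 tested mature neutrophil genes, 6 were called higher at day 2, while Cd177, a neutrophil surface protein, was called lower at day 1 (log2 change -1.25, limma adjusted p = 0.00946) and had a day 2 change of -0.62, and Ngp and Ltf had day 2 changes of -0.38 and -0.22. The list means ran from -1.57 to -1.30 in untreated blood, -1.51 to -1.14 at day 1, -1.08 to -0.29 at day 2 and -1.81 to -1.45 at day 5, highest at day 2. Of 8 tested genes of plasma cells, which are rich in the secretory machinery, 0 were called at day 2 and only Tnfrsf13b was lower at day 1. The list means ran from -0.09 to 0.45 in untreated blood, -0.14 to 0.24 at day 1, -0.15 to 0.11 at day 2 and 0.03 to 0.16 at day 5. These 8 cover plasma cells poorly, since Tnfrsf17 and Xbp1 had too few values to be tested. Cd28 and Derl3 among them also stand on the T cell and ER folding lists. Of 9 tested B cell genes 2 were called lower at day 1, 2 at day 2 and 3 at day 5, with list means from 0.17 to 0.37 in untreated blood, -0.23 to -0.02 at day 1, -0.32 to -0.03 at day 2 and -0.32 to -0.06 at day 5. Of 8 natural killer and cytotoxic cell genes 4 were called lower at day 2 and 2 at day 5 and 1, Tbx21, higher at day 1, and their list means ran from 0.41 to 1.04 in untreated blood, 0.37 to 0.75 at day 1, 0.00 to 0.28 at day 2 and 0.00 to 0.11 at day 5. Of 5 T cell genes only Cd4 was called, higher at day 2, with list means from 0.37 to 1.66 in untreated blood, 1.04 to 1.68 at day 1, 0.41 to 1.26 at day 2 and 0.32 to 1.02 at day 5. Of 8 platelet genes 5 were called higher at day 1 and 1, F2rl2, at day 5, with list means from 1.78 to 1.99 in untreated blood, 3.00 to 3.28 at day 1, 1.94 to 2.97 at day 2 and 2.15 to 3.24 at day 5. The B cell and natural killer genes called lower at day 5 were low there while the members' means stood above their untreated ones. The part of these cell types in the members' values was not tested.

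The features whose course was most like that of the members were not genes of the 5 pathway lists. Over 15 samples, with each profile centred on its untreated mean, the root mean square difference from the mean of the 6 members was smallest for Gstt3 (0.17 log2 units), Tuba3a (0.17), Klk1b5 (0.18), Fut1 (0.20) and Fxyd6 (0.20), among 3556 named features with values in all samples whose median difference was 1.31. As background, Gstt3 is a glutathione S-transferase, Tuba3a an alpha tubulin, Klk1b5 a kallikrein-related protease, Fut1 a fucosyltransferase and Fxyd6 a regulator of the sodium pump. Gstt3 had log2 ratios of 0.32, 0.54, 0.67 and 0.78 in untreated samples, -0.89, -0.98, 0.12 and -0.33 at day 1, -1.17, -1.15, -1.73 and -1.33 at day 2, and 1.46, 1.19 and 0.51 at day 5. Alas2 itself was 83rd in likeness, with a difference of 0.66. Its day 5 replicate 3 was the highest of its group (1.39), whereas that sample was below the group mean for all 6 members.

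Taken singly, the nearest feature was Syt9 for Vav2 (0.38 log2 units), Myf6 for Anxa4 (0.24), Sema4d for Sec61g (0.28) and for Ttc8 (0.31), Klk11 for Pdia4 (0.24) and Fut1 for Daw1 (0.15). Syt9 is a synaptotagmin, Myf6 a muscle transcription factor, Sema4d a lymphocyte semaphorin and Klk11 a kallikrein-related protease. Among the members, Anxa4 and Daw1 were most alike, with a difference of 0.28, followed by Sec61g and Ttc8 with 0.31, and Vav2 and Sec61g were least alike with 0.73. The closest pairs thus joined a membrane gene with a ciliary one and a secretory gene with a ciliary one. The likeness measure uses the contrasts that picked the members and is a description.

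**Figure D4:**
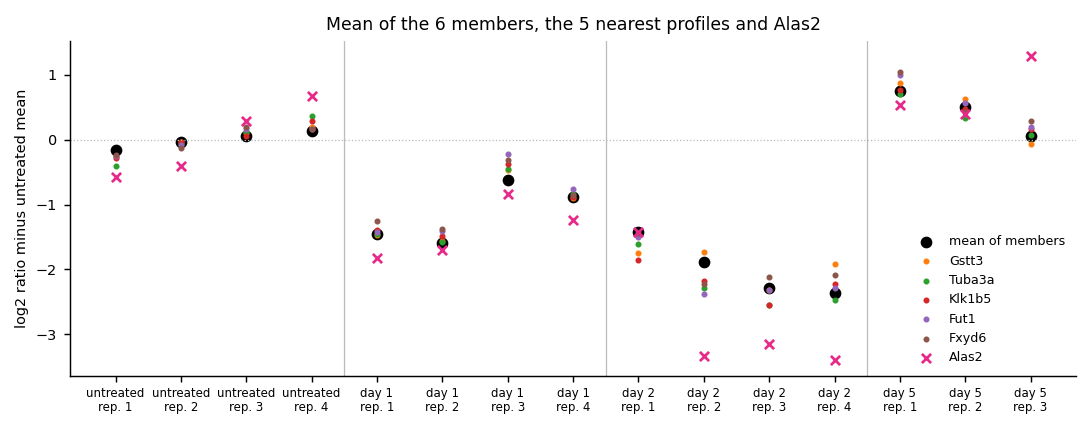
Log2 ratio minus the untreated mean (vertical axis) in each of the 15 samples (horizontal axis, grouped by time) for the mean of the 6 genes (black), the 5 features with the most similar course (coloured points) and Alas2 (crosses). The 5 features follow the black points within each group, and Alas2 departs from them most in day 2 replicates 2 to 4 and in day 5 replicate 3.

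Deviations from the group means inside the groups were not used to pick the members. Day 1 replicates 1 and 2 had mean deviations over the members of -0.32 and -0.45 log2 units, and replicates 3 and 4 of 0.51 and 0.25. Day 2 replicate 1 was above its group mean for all 6 members, by 0.56 on average, and day 2 replicate 3 and day 5 replicate 3 were below theirs for all 6. In day 2 replicate 3 the deviations of Sec61g (-0.01) and Pdia4 (-0.02) were close to 0. Day 1 replicates 3 and 4 were the high ones of their group in 5 members, and in Sec61g replicates 3 and 1 were. Over 15 samples the 15 pairs of members had Pearson's r between 0.39 and 0.80 with a median of 0.57 and Spearman's rank correlation between 0.41 and 0.82. The pairs share samples and arrays, and the median r over all pairs of 4920 features with complete values was 0.00, with 5.05% of those pairs at or above 0.57.

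No pair passed after Benjamini-Hochberg adjustment over the 15 pairs (two-sided permutation of samples within groups, 100000 draws). The adjusted permutation p ran from 0.0663 to 0.152 for r and from 0.0563 to 0.162 for the rank correlation, and 7 pairs had an unadjusted p under 0.05 for r and 6 for the rank correlation. The pairs with the lowest p were Pdia4 with Daw1 (r = 0.74, rank correlation 0.78, permutation p = 0.00681 and 0.0053) and Anxa4 with Daw1 (r = 0.80, rank correlation 0.80, permutation p = 0.00884 and 0.00929). Without the 2 samples farthest from the median on the first gene, r ran from 0.24 for Pdia4 with Ttc8 to 0.92 for Vav2 with Anxa4. All 15 pairs had a positive r, and none passed the test. In untreated replicates 2 and 3 and in day 2 replicate 2, 3 members lay above their group means and 3 below. When single samples were left out, 4 pairs passed without day 2 replicate 2 or without day 2 replicate 3, 3 without untreated replicate 4 and 1 without untreated replicate 2, day 5 replicate 1 or day 5 replicate 2.

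**Figure D5:**
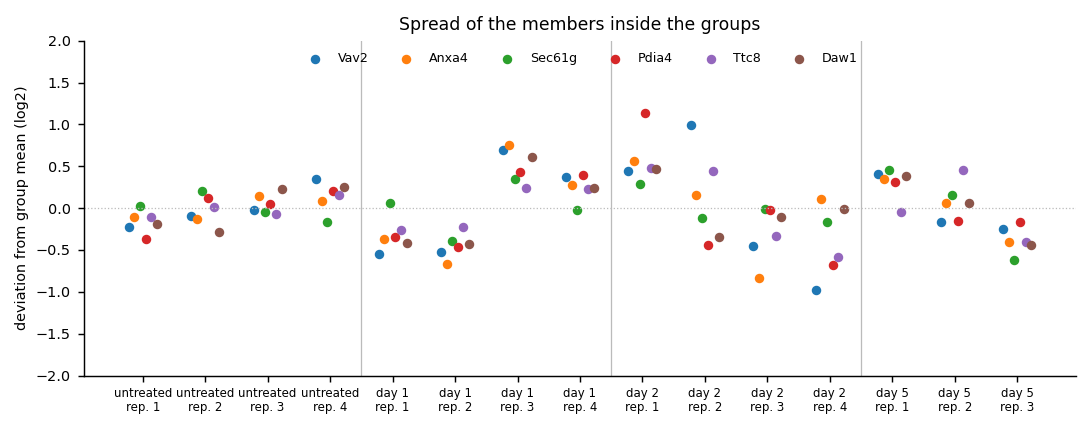
Deviation of each of the 6 genes from its group mean in log2 units (vertical axis) in each of the 15 samples (horizontal axis); each colour is a gene and vertical lines part the groups. All 6 genes are above 0 in day 1 replicate 3 and day 2 replicate 1 and below 0 in day 1 replicate 2, day 2 replicate 3 and day 5 replicate 3. Sec61g (-0.01) and Pdia4 (-0.02) are only just below 0 in day 2 replicate 3.

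Day 2 replicate 1, the sample of its group in which the members were least low on average, also differed from the other day 2 samples in its columns. Its columns held 5314 to 5471 values of 13443 probes, the fewest of any sample. The SD of its log2 ratios was 0.49, against 0.62 to 0.64 in the other day 2 samples and 0.38 to 0.60 in untreated ones. Alas2 deviated by 1.40 there, more than in any other sample. Without it the day 2 changes of the members ran from -2.67 for Vav2 and Anxa4 to -1.61 for Sec61g, all lower than with it, and its part in the members' spread was otherwise not tested. Day 1 replicate 3, where the members were least low of their group (mean -0.30), was alike in this. Its columns held 6228 to 6341 values, the fewest of the day 1 samples, and its SD of 0.54 was their lowest. Day 1 replicate 4 held the most values of any sample (9321 to 9398), and the members' mean deviation there was 0.25, also above the group mean. Whether the number of values bears on the members' ratios was not tested. Untreated replicate 2 had the smallest SD of log2 ratios (0.38), and the members' mean deviation there was -0.03.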

How the data were processed

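Per the labels, RNA of each blood sample was amplified and labelled with Cy5 and a bone marrow reference with Cy3. The authors deposited log ratios, 1 per probe and column, in 30 columns of 13443 probes. For the log base, scanner, background correction, normalization and filter, the sources used here give no steps. The deposited values, between -4.70 and 5.76, exceed the 4.82 possible for log10 of a 16-bit intensity and were taken as log2; base e is possible, and folds would then be larger. Probes were named through the platform annotation, technical replicates and then probes of a symbol were averaged, and 13027 features resulted. Tested were the 6515 with values in at least 3 of 4 (day 5: 2 of 3) samples of every group.

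Tests used limma 3.58.1 (R 4.3.3), 1 mean per group over 15 samples, with Benjamini-Hochberg adjustment over all tested features at 0.05. They were also run on simulated data, and the outcome of that run is not given here. Members and lists were chosen with earlier results of these data known. Besides the members, named were up to 4 tested genes of a pathway list, and up to 3 of a marker list, with the largest day 2 change, genes that passed, and the nearest profiles; exceptions are said to be so. The alternatives tried were filters, scaling, prior, fit of 2 groups, single technical replicates, single probes, array weights, the replicate number as a block and leaving out each sample. One pathway list is not reported here.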

Additional observations from a re-analysis of the deposited data

How the results depend on the processing

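The members were picked on untreated, day 2 and day 5 samples, which set their calls at day 2 against untreated and at day 5 against day 2, so the steadiness of those calls is not read. At day 5 against untreated 0 members were called under all 25 alternatives, and no member's change turned its sign in any comparison. At day 1 against untreated the count of 4 ran from 1 to 5 when single samples were left out and from 3 to 6 otherwise; of 150 values, 21 lost a call and 10 gained one. At day 2 against day 1 the count of 2 fell to 0 with no filter, to 1 with quantile normalization, to 0 in a fit of both groups alone, to 1 and 0 with technical replicate 1 or 2 alone and to 0 with the replicate block, and ran from 0 to 3 when single samples were left out; the causes were not tested. Of the 15 pairs of members, 0 to 4 had correlated deviations when single samples were left out. Samples with the same number in different groups did not deviate together (median r of -0.04, from -0.35 to 0.22). With 3 or 4 samples in a group this cannot exclude that the numbers pair the samples. The replicate block gave 3 members at day 1 and 0 at day 5 against untreated. Over all tested features, 300 were called at day 1, 826 at day 2 and 71 at day 5 against untreated, against 55 to 903, 521 to 1024 and 28 to 252 under the alternatives, among them, at day 1, 903 with array weights, 55 after leaving out untreated replicate 4 and 107 with the replicate number as a block. The alternatives for the list genes were added after seeing the data; pathway genes called at day 2 numbered 1 to 3 lower, against 2, and 1 to 5 higher, against 4. Signal over background was not used here, so what dim probes limit is unknown.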
